A study of Mus musculus with 2 samples.

Results

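Mir375 and 3 miR-7 genes of the mouse, Mir7-1, Mir7-2 and Mir7b, are described here in the stomach of newborn mice. They were picked by name as the rows whose Ensembl identifier carries that symbol in GENCODE release M21, and all 4 were found among 1973 miRNA genes. The data are small RNA libraries, limited to molecules below 30 nucleotides (nt), from 2 whole stomachs. The donors were B6NCrl pups at postnatal day 0, born to 1 dam, with no treatment or mutation named in the labels and their sex not collected. The libraries form 1 group, so there is no contrast between conditions, and every spread below is that between 2 littermates. The stomach is read as a whole organ, so fewer cells of a type and less RNA per cell cannot be told apart, and no read is tied to an endocrine cell.

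A miRNA gene is transcribed into a longer RNA from which a hairpin is cut, and the 5′ (5p) and 3′ (3p) sides of the hairpin yield short mature miRNAs. The guide strand pairs with messenger RNAs mainly through its seed, bases 2 to 8, and lowers their output. miR-375 is a leading miRNA of pancreatic islets, where it restrains insulin secretion and sustains the endocrine cell mass, and it is also known from endocrine cells of the gut. miR-7 is conserved across animals and is enriched in islets, pituitary and neurons. In mouse beta cells its loss from Mir7-2 raises insulin release.

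The 4 genes lie on 4 chromosomes, given here in GRCm38 coordinates of GENCODE M21. Mir375 (ENSMUSG00000065616.2 in the tables) occupies 74900658 to 74900721 of chromosome 1, minus strand, between genes. Its nearest protein-coding genes are Cfap65, 1349 nt away, the lens crystallin gene Cryba2, 7514 nt away, and Fev, 15238 nt away, which encodes a transcription factor of serotonin-producing cells. Mir7-1 (ENSMUSG00000065434.1) spans 58392779 to 58392886 of chromosome 13, minus strand, in an intron of Hnrnpk, a broadly expressed RNA-binding protein gene read from the same strand. Mir7-2 (ENSMUSG00000065609.1) spans 78888277 to 78888373 of chromosome 7, plus strand, between genes, with Aen as its nearest protein-coding gene at 7480 nt. Mir7b (ENSMUSG00000065491.1) spans 56242988 to 56243098 of chromosome 17, plus strand, also between genes. The end of the noncoding RNA gene AC026385.1 lies 182 nt from it on the same strand.

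The sequences decide which reads can be credited to which miR-7 gene, and the mature forms are shown for that reason. They come from RefSeq on GRCm38.p6, where all 4 symbols matched, and each RefSeq hairpin was identical to that of GENCODE M21. Seeds are in capitals.
miR-7a-5p, from both Mir7-1 and Mir7-2: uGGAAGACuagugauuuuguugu
miR-7b-5p, from Mir7b: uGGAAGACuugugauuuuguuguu
miR-375-5p, from Mir375: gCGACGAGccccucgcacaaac
The 5p miRNAs of the 3 miR-7 genes have the same seed, and in the RefSeq table no mature mouse miRNA of another gene has it. Over the 23 bases compared, miR-7a-5p and miR-7b-5p differ at 1 position, A10U, counted from the 5′ end and outside the seed. No other mature miRNA in the table has the seed of miR-375-5p. The arm known as the guide of Mir375, miR-375-3p, was not analysed here.

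The 3p sides differ among the miR-7 genes at 6 of 22 positions, which are in capitals here.
miR-7a-1-3p, from Mir7-1: caacaaAucAcagUcUgccAUa
miR-7a-2-3p, from Mir7-2: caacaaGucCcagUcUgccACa
miR-7b-3p, from Mir7b: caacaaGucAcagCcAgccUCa
Between miR-7a-1-3p and miR-7a-2-3p there are 3 differences, A7G, A10C and U21C, the first of them within the seed. miR-7a-2-3p and miR-7b-3p have the same seed and differ by C10A, U14C, U16A and A20U.

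Mir7-1 and Mir7-2 share a stretch of 24 nt that holds the whole of miR-7a-5p, as their hairpins show with that stretch in capitals.
Mir7-1: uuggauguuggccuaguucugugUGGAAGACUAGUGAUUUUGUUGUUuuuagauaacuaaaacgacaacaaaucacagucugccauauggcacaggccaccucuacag
Mir7-2: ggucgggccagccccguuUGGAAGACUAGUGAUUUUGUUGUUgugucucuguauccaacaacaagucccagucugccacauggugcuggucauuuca
A read that lies within the capitals has the same letters at both genes. Such a read maps to more than 1 place. Each table has a row of its own for reads mapping to several places, and that row, the other rows without a gene and the gene rows add up to the same total in each column, from which it is inferred that these reads are in no gene's count. The row holds 1873722 reads (26.0% of all) in pup 1 and 1425289 (25.7%) in pup 2. Reads from the private 3p arms, or reads that run past the shared stretch, can still be credited to 1 gene. How many reads of miR-7a-5p are among those mapping to several places was not tested, and counts per arm were not analysed here. If that inference holds, the counts of Mir7-1 and Mir7-2 below are of reads that could be placed, and may understate both genes.

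For Mir7b and Mir375 no such overlap was found. The longest stretch that Mir7b has in common with Mir7-1 or Mir7-2 is 14 nt, and no stretch of 20 nt of either hairpin recurs in another annotated mouse hairpin. The hairpins follow with the 5p arm in capitals.
Mir7b: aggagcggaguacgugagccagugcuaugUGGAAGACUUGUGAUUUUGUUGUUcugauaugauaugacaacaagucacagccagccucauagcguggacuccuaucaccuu
Mir375: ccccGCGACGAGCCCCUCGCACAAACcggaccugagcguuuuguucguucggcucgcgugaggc
The search covered annotated hairpins and not the rest of the genome.

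**Figure D1:**
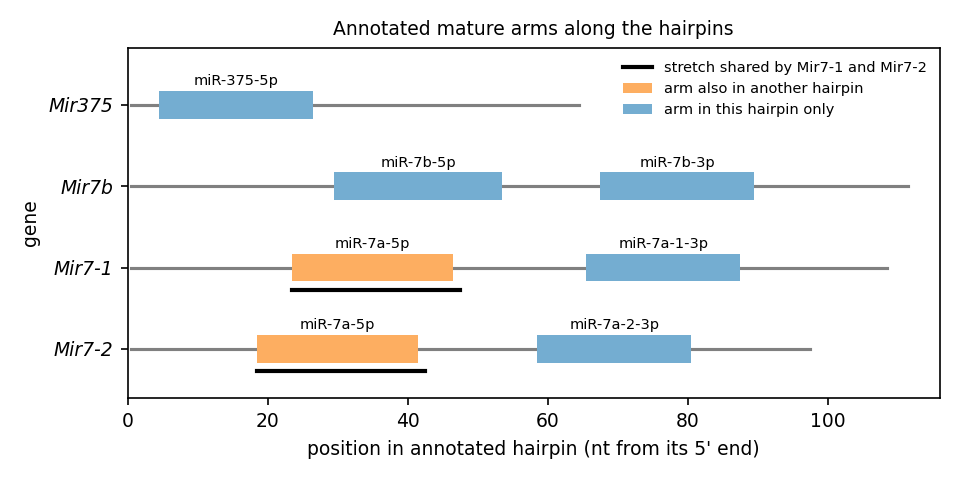
Mature arms of the 4 genes (bars) along their annotated hairpins (lines), with the position in nt from the 5′ end of the hairpin on the x axis. Orange marks an arm that another hairpin also holds and blue an arm in 1 hairpin, and the black line is the 24-nt stretch common to Mir7-1 and Mir7-2, which covers miR-7a-5p and leaves both 3p arms outside.

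Mir375 had by far the most placed counts of the 4 genes in the newborn stomach. It had 34281 counts on its own strand in pup 1 and 24714 in pup 2. With own-strand totals of 4463355 and 3454655, these are 7681 counts per 1000000 own-strand counts (CPM; exact 95% Poisson interval 7599 to 7762) and 7154 CPM (7065 to 7244). The mean of 7417 ± 372 CPM (SD, n = 2) is 0.742% ± 0.0372 of all own-strand counts. The gene took rank 24 by mean among the 305 miRNA genes with at least 10 counts in each library, a set called detected here. All intervals cover counting error only, since the labels name no molecular identifiers that would tell PCR copies from separate molecules. The pups differ by more than that error, as their intervals do not overlap. Differences beyond counting error were common among detected genes, as given below.

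Mir7b had the most placed counts of the 3 miR-7 genes, with 1492 and 1443 in pups 1 and 2. This is 334 CPM (318 to 352) and 418 CPM (396 to 440), a mean of 376 ± 59.0 CPM at rank 121. Mir7-1, the gene within Hnrnpk, had 285 and 295 counts, or 63.9 CPM (56.7 to 71.7) and 85.4 CPM (75.9 to 95.7). Its mean of 74.6 ± 15.2 CPM gave it rank 185. Mir7-2, the gene whose loss affects insulin release, had the fewest placed counts, 49 and 45. In CPM, Mir7-2 stood at 11.0 (8.12 to 14.5) and 13.0 (9.50 to 17.4). Its mean was 12.0 ± 1.45 CPM, rank 253 of 305. If reads of miR-7a-5p that map to both Mir7-1 and Mir7-2 are left out, as inferred above, the levels and ranks of both may be understated. For Mir7-2 the intervals of the pups overlap, while for Mir7b and Mir7-1 pup 2 lies above pup 1 without overlap. Such differences are not particular to these genes. An exact binomial test of counting error, described below, passed 159 of 305 detected genes (52.1%) at any ratio. Each of the 4 genes had 0 counts on the opposite strand in both libraries, so their counts are the same with both strands combined, and the choice of strand enters CPM through the total alone. A count of 0 allows up to 0.672 CPM in pup 1 and 0.868 CPM in pup 2 (3 counts of the total), and all 4 genes stood above that in both.

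**Figure D2:**
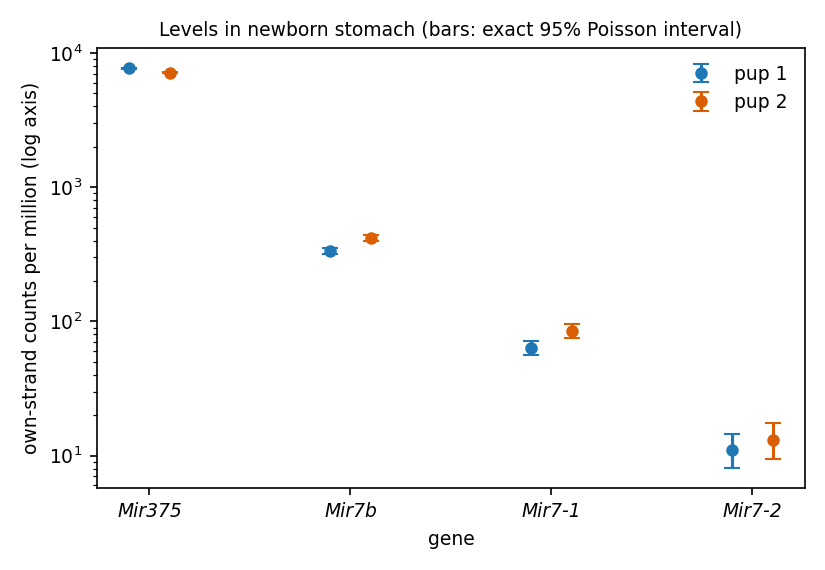
Level of each gene (x axis) in CPM on a log y axis, with 1 point per pup and exact 95% Poisson intervals as bars. By placed counts the order Mir375, Mir7b, Mir7-1, Mir7-2 is the same in both pups. No interval of a gene reaches that of the next gene in the order.

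Together the genes held 36107 counts in pup 1 and 26497 in pup 2, and Mir375 made up 94.9% (exact 95% binomial interval 94.7% to 95.2%) and 93.3% (93.0% to 93.6%) of them. The 3 miR-7 genes added up to 409 and 516 CPM, or 463 ± 75.7 CPM. Within a pup, Mir375 exceeded their sum 18.8-fold (17.9 to 19.7) in pup 1 and 13.9-fold (13.2 to 14.6) in pup 2. On the log2 scale this was 4.01 ± 0.31, a ratio of 16.1. Small RNA reads are about as long as a mature miRNA, 22 to 24 nt for these genes in RefSeq, so these ratios compare numbers of reads and not hairpins of unequal length. Per nucleotide of annotated hairpin, which is 64 nt for Mir375 and 97 to 111 nt for the others, the ratio was 27.7. By the same inference, reads of miR-7a-5p that map to both its genes are outside the miR-7 sum, so the ratio may be overstated by an amount that cannot be read from these tables.

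Among the 3 miR-7 genes the proportions were nearly equal in both littermates. Mir7j, a detected gene with a like symbol (101 and 78 counts, rank 233), was not among the genes picked and is outside these proportions. Mir7b supplied 81.7% (79.9% to 83.5%) of the placed counts of the 3 genes in pup 1 and 80.9% (79.0% to 82.7%) in pup 2. Mir7-1 supplied 15.6% (14.0% to 17.4%) and 16.5% (14.8% to 18.4%). Mir7-2 supplied 2.68% (1.99% to 3.53%) and 2.52% (1.85% to 3.36%). For each gene the intervals of the pups overlap. In placed counts, Mir7b exceeded Mir7-1 by 2.34 ± 0.07 on the log2 scale (5.06-fold) and Mir7-2 by 4.97 ± 0.05 (31.2-fold). Mir7-1 exceeded Mir7-2, with which it shares miR-7a-5p, by 2.63 ± 0.12 (6.17-fold). With 2 libraries these mean log2 ratios are given with their SD over the pups only, and no test of them was run. That SD does not cover reads of miR-7a-5p that the counting could not place in either pup. The comparison of Mir7-1 with Mir7-2 uses reads that the counting could place for both. The comparisons with Mir7b set a gene whose 5p reads can be placed against genes whose 5p reads of up to 24 nt cannot.

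In the order of all detected genes, Mir375 stood between Mir411 and Mir17. Mir411, a gene of the imprinted Dlk1-Dio3 region, was above Mir375 in both pups, by a mean of 0.11 on the log2 scale. The SD of that gap, 0.00027, is smaller than counting error alone would give, so it is no usable spread. Mir17, which promotes proliferation, was below Mir375 by mean, at 6591 CPM in pup 1 and 8064 CPM in pup 2. The order of Mir375 and Mir17 thus differs between the pups. Mir7b was next to Mir25 (376 ± 29.6 CPM) and Mir674 (376 ± 4.83 CPM). Mir7-1 was next to Mir667 (76.4 ± 6.62 CPM) and Mir410 (72.8 ± 5.10 CPM), and Mir7-2 to Mir511 (13.5 ± 0.612 CPM) and Mir383 (11.9 ± 0.00455 CPM). The SD of Mir383 rests on 53 and 41 counts and is likewise below counting error. None of these neighbours of the miR-7 genes differed from them by more than the SD over the pups. Within 1 SD of the mean of Mir375 lay 1 other detected gene, against 9 for Mir7b, 17 for Mir7-1 and 4 for Mir7-2.

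**Figure D3:**
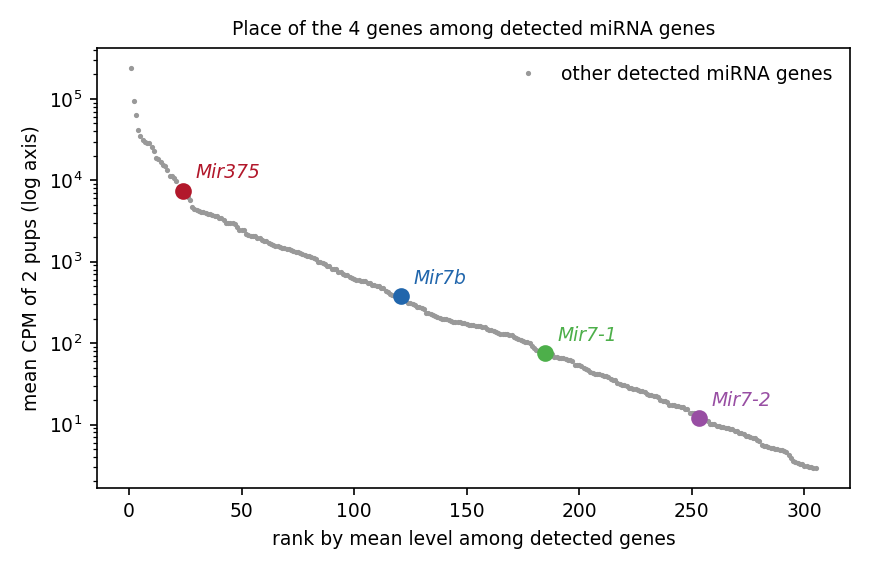
Mean CPM of the 2 pups on a log y axis against the rank among 305 detected miRNA genes on the x axis, with 1 point per gene and the 4 genes in colour. Mir375 is at rank 24 and the miR-7 genes at ranks 121, 185 and 253.

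The spread between the pups was measured against counting error. The coefficient of variation over the pups was 5.02% for Mir375, 15.7% for Mir7b, 20.4% for Mir7-1 and 12.1% for Mir7-2, beside a median of 9.40% over detected genes. Counting error alone gives 0.590%, 2.61%, 5.87% and 14.6% for the same genes. The spread of Mir7-2 is thus within its counting error, and the other genes varied by more than theirs.

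None of the 4 genes was called different between the pups. A two-sided exact binomial test, run on each of the 305 detected genes and adjusted by Benjamini-Hochberg, compared the libraries after TMM scaling, and a call needed a ratio of at least 1.5 together with an adjusted p under 0.05. It called 9 of 305 genes (2.95%). Mir375 was 1.15-fold higher in pup 1, with a log2 ratio of pup 1 over pup 2 of 0.21 (exact 95% interval 0.18 to 0.23; adjusted p = 1.53e-64 in the exact binomial test). Mir7b was 1.16-fold higher in pup 2, at a log2 ratio of -0.22 (-0.32 to -0.11; adjusted p = 0.000146, exact binomial test). Mir7-1 was 1.25-fold higher in pup 2, at -0.32 (-0.56 to -0.08; adjusted p = 0.0191, exact binomial test). Mir7-2 gave -0.14 (-0.76 to 0.47; adjusted p = 0.801, exact binomial test), an interval that reaches past a 1.5-fold difference in favour of pup 2. Mir375, Mir7b and Mir7-1 thus passed on p and fell short on ratio. Without the filter on low counts, Mir7-1 did not pass on p either (adjusted p = 0.0675, exact binomial test).

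Such small differences were common in these libraries. At an adjusted p under 0.05 and any ratio the binomial test passed 159 of 305 detected genes (52.1%), and 121 detected genes had a larger absolute log2 ratio than Mir375. The test covers counting error and compares 2 libraries, not conditions. With edgeR's common dispersion of the same libraries as the error, 1 gene (0.328%) was called. The 4 genes had unadjusted p-values from 0.241 to 0.808 and an adjusted p = 0.999 each in the edgeR exact test. That dispersion takes the difference between the pups as its error, so these p-values cannot test the difference. Scaled by total counts, the median detected gene was at a log2 ratio of -0.13, against -0.02 after TMM, and Mir375 was then at 0.10 and Mir7-1 at -0.42, each with its direction kept.

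**Figure D4:**
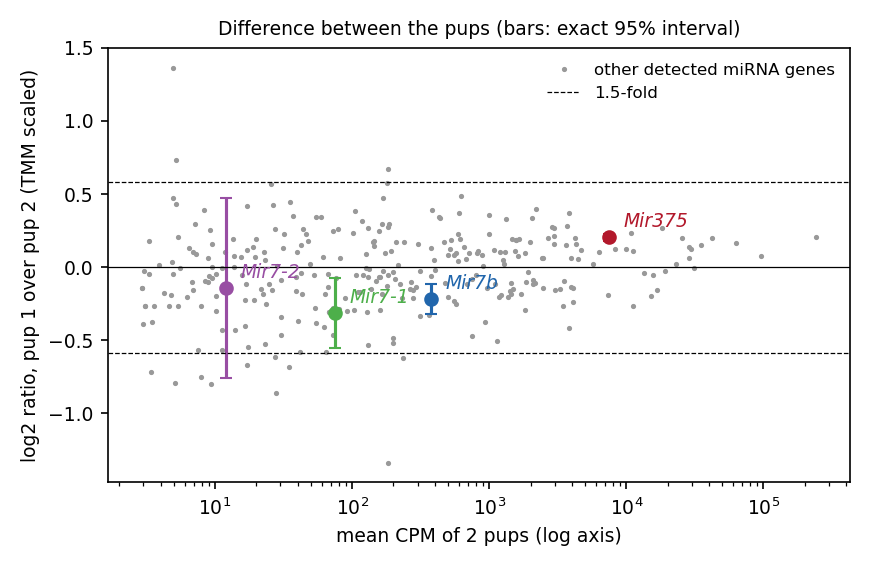
Log2 ratio of pup 1 over pup 2 after TMM scaling (y axis) against mean CPM on a log x axis for the 305 detected genes, with exact 95% intervals for the 4 genes and dashed lines at 1.5-fold. Mir375 lies above 0 and the 3 miR-7 genes below it, and all 4 points fall between the dashed lines.

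A ratio within a library needs no scaling between libraries, and by this measure Mir375 stood higher over Mir7b and Mir7-1 in pup 1 than in pup 2 beyond counting error. Mir375 exceeded Mir7b 23.0-fold (21.8 to 24.2) in pup 1 and 17.1-fold (16.2 to 18.1) in pup 2, and Mir7-1 120-fold (107 to 136) and 83.8-fold (74.7 to 94.3). Those intervals do not overlap between the pups. Against Mir7-2 the values were 700-fold (529 to 946) and 549-fold (410 to 753), with overlap. With 1 library per pup, neither difference has a replicate.

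The libraries are described next by lists of epithelial, muscle and hepatocyte genes. The lists were chosen with earlier results of these data known and no other tissue was compared, so stomach identity was not tested. Of all 1973 genes 305 were detected. Genes of squamous epithelium, which lines the forestomach, held 11.2% and 11.7% of counts in pups 1 and 2 with 3 of 3 detected, led by Mir203. Genes of glandular gastrointestinal epithelium held 0.816% and 0.769% with 4 of 4 detected, led by Mir215. The general epithelial miR-200 genes held 6.11% and 6.60%, led by Mir429, and the smooth muscle genes Mir143 and Mir145a 25.6% and 23.9%. The hepatocyte gene Mir122 held 0.0205% and 0.0255%. By summed CPM, the glandular and smooth muscle shares were lower in pup 2, as was Mir375. The squamous and general epithelial shares were higher in pup 2, as were the miR-7 genes, though for Mir7-2 the intervals of the pups overlap. The members of most of these lists did not all go with their sum: in pup 2 Mir215, Mir192 and Mir143 were lower, while Mir194-1, Mir194-2 and Mir145a were higher. By CPM, 4 of 5 general epithelial genes were higher there and Mir429 was lower, and 3 of 3 squamous genes were higher. After TMM scaling, Mir203 was instead higher in pup 1, at a log2 ratio of pup 1 over pup 2 of 0.078 (exact interval 0.072 to 0.085). Mir205 (-0.159) and Mir31 (-0.099) stayed higher in pup 2 after TMM, and Mir145a was at 0.024 (-0.003 to 0.051). The list sums were not scaled by TMM, so their directions are given for CPM alone. The median detected gene was also higher in pup 2 by CPM, at a log2 ratio of pup 1 over pup 2 of -0.13. The part of tissue makeup in the pup ratios was not tested.

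Mir375 was close in counts to the whole glandular list and far above the list of the exocrine pancreas. Within each pup it equalled 0.942 and 0.930 of the summed counts of the 4 glandular genes, 2 of which share a stretch with another hairpin and can be understated. The acinar genes Mir217, Mir216a and Mir216b summed to 12 counts in pup 1 and 9 in pup 2, with Mir216a at 4 and 0 counts. Of these genes 0 of 3 were detected, beside 305 of all 1973 genes. Mir375 exceeded their sum 2857-fold and 2746-fold, and Mir7b exceeded it 124-fold and 160-fold. These genes stand for acinar cells and not for islets, and the part of pancreatic tissue in the counts was not tested.

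In the list of endocrine and neuroendocrine miRNA genes, 8 of 8 were detected, beside 305 of all 1973 genes, and 4 of the 8 are the genes described here. The list held 1.45% of counts in pup 1 and 1.57% in pup 2, or 1.51% ± 0.0809. The list was drawn up with earlier results of these libraries known. Mir375 made up 52.9% of it in pup 1 and 45.7% in pup 2. The cluster of Mir182, Mir183 and Mir96, known from sensory cells, came next at 3816 ± 958, 1966 ± 63.2 and 1371 ± 206 CPM. Mir153, a neuronal and islet miRNA gene, stood at 63.0 CPM in pup 1 and 69.8 CPM in pup 2. Its mean of 66.4 ± 4.81 CPM lies within the SD of Mir7-1.

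Neurons are another known source of miR-7, and the stomach wall holds enteric nerve cells. Of 14 neural genes fixed, 13 were analysed and 7 detected, beside 305 of all 1973 genes. They held 0.151% and 0.176% of counts in pups 1 and 2. Mir137, at 1096 and 1345 CPM, supplied most of that. Mir9-2 and the 3 Mir124a genes had 0 counts in both pups and Mir9-3 had 1 and 3, but each of these shares a stretch with another hairpin, so a lack of placed reads says little about their level. Mir375 exceeded the neural sum 5.08-fold in pup 1 and 4.07-fold in pup 2. Mir7b was below it, at 0.221 and 0.238 of the neural sum. Mir7b and the neural sum were both higher in pup 2 by CPM. Of the 13 neural genes 6 were higher there and 3 lower, and without Mir137, a setting added once the data had been seen, the sum was 417 CPM in pup 1 and 414 CPM in pup 2. By CPM the median detected gene was also higher in pup 2, at a log2 ratio of pup 1 over pup 2 of -0.13. The part of neural cells in the miR-7 counts was not tested.

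**Figure D5:**
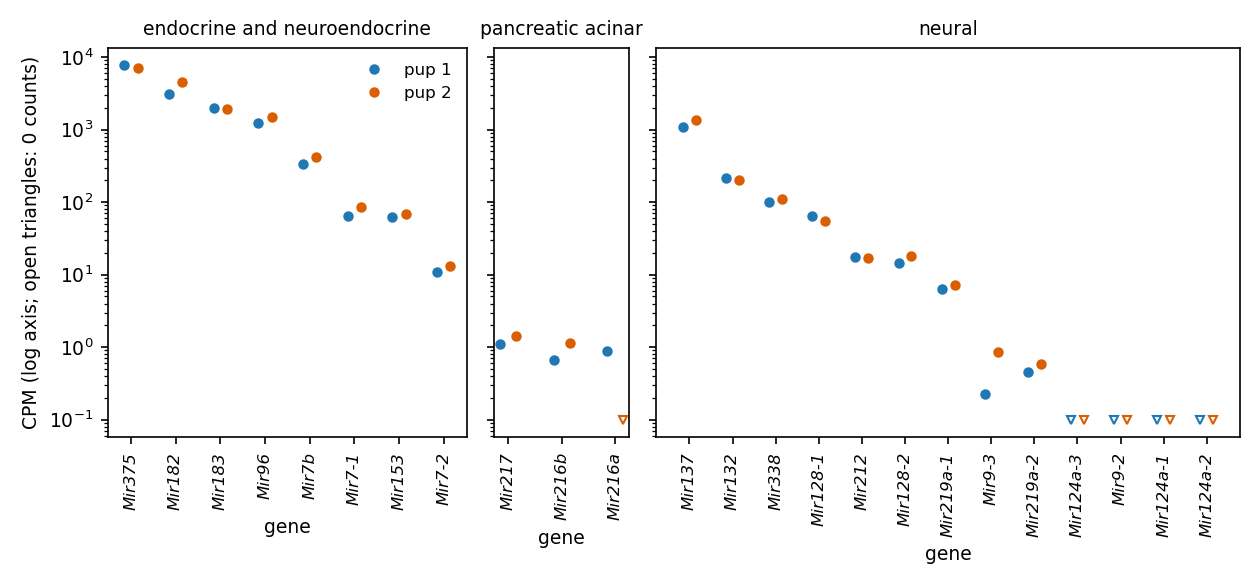
CPM on a log y axis for the genes of 3 lists (x axis), with 1 point per pup and open triangles, set at the lower edge, for 0 counts. Mir375 heads the endocrine list, the 3 acinar genes lie at or below 1.45 CPM, and the neural genes range from Mir137 to 4 genes with 0 counts in both pups.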

How the data were processed

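Small RNA reads were counted by the authors, who deposited 1 table of raw counts per library with no header, with counts for the strands combined and for each of them. The accompanying description files name assembly mm10 and annotation M4, and no source used here gives the aligner, the counting tool or the adapter handling. Rows that name no gene stayed out of totals: 8.70% and 8.94% of reads were unmapped, 26.0% and 25.7% mapped to several places, 1.78% and 1.70% fell outside genes and 0 were ambiguous. That reads mapping to several places are in no gene's count is inferred from the row sums. The strand column with the larger total, column 3 in both tables, held 97.7% and 97.8% of gene counts and was used as the gene's own strand.

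Of 1973 identifiers 1894 matched GENCODE M21 (GRCm38) without their version. Levels are counts per 1000000 own-strand counts. Detection needed 10 counts in each library and the floor is 3 counts. Hairpins were compared by exact matches of at least 20 nt. TMM factors and the common dispersion came from edgeR 4.0.16 (R 4.3.3) and other size factors from DESeq2 1.42.0. Exact tests used scipy 1.17.1 under Python 3.11.15. The binomial test was tried on simulated data with counting noise only, a setting that leaves out the further variation between these pups. Alternatives changed strand, total, scaling, filter, error model, hairpin length and stretch length, or left out a pup. Genes named are the 4 genes, members of 8 cell type lists, the detected genes next above and below each of the 4, and genes that share a stretch or seed with them. The 4 genes and the lists were chosen with earlier results of these data known.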

Additional observations from a re-analysis of the deposited data

Results flagged for a closer look

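Of the genes in the report, Mir203 had reads on the strand opposite to the gene above the 3 counts that a count of 0 allows, with 11 in pup 1 and 12 in pup 2, in a column that the comparisons do not use. These are few beside the 422110 and 332331 own-strand counts of Mir203. Over all genes the opposite strand held 103102 counts in pup 1 and 76014 in pup 2.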

How the results depend on the processing

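With all reads of the tables as the total, the levels were 4611 for Mir375, 234 for Mir7b, 46.4 for Mir7-1 and 7.46 for Mir7-2 per 1000000 reads. Without Mir143 in the total they were 9789, 495, 98.3 and 15.8 CPM. Counts without regard to strand moved each level by less than its SD. Per nucleotide of hairpin, the log2 ratio of Mir375 over the summed miR-7 genes was 4.79, that of Mir7-1 over Mir7-2 was 2.47 and that of Mir7b over Mir7-2 was 4.77, each in its direction. None of the 4 genes was called between the pups under any of 5 alternatives, and their directions held, with log2 ratios of 0.10 to 0.23 for Mir375, -0.32 to -0.19 for Mir7b, -0.42 to -0.29 for Mir7-1 and -0.25 to -0.12 for Mir7-2. Of these alternatives, edgeR's common dispersion takes the difference between the pups as its error and cannot test it. The number of genes called was 16 with total counts as scaling, against 9. Stretches of 18 and 22 nt marked Mir7-1 and Mir7-2, as 20 nt did. No paired analysis was possible because the libraries form 1 group. With 1 library per pup, no pup difference has a replicate, and depth limits Mir7-2 most, with under 50 counts in each library.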

Other observations

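Mir7-1 and Mir7-2 belong to a wider class of genes with an arm identical to that of another gene and an arm of their own. Among genes with mature sequences in the RefSeq table, 53 were of this kind, of which 34 (64.2%) were detected with a median of 41.1 CPM. Mir7-1 lay below 13 of these 34 and Mir7-2 below 28. Of 829 genes with no arm in common with another gene, 242 (29.2%) were detected, with a median of 184 CPM and with Mir375 and Mir7b among them, though Mir375 was placed there by miR-375-5p alone and miR-375-3p was not analysed here. Of 34 genes whose every listed arm recurs elsewhere, 6 (17.6%) were detected, with a median of 45.4 CPM. Beside these classes, 305 of all 1973 genes were detected, with a median of 166 CPM. The RefSeq table is not complete, and these counts describe the libraries with no test.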
